A study of Mus musculus with 6 samples.

Results

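Transcripts of 10 BCL2 family genes were followed in 4T1 cells, a mouse mammary adenocarcinoma line labelled as epithelial. The genes were taken by name from the 24421 gene rows of the deposited table, and all 10 were found: the pro-survival genes Bcl2, Bcl2l1 and Mcl1, the pore-forming effectors Bax and Bak1, and the BH3-only genes Bid, Bad, Bbc3, Pmaip1 and Bcl2l11. The cells carried a short hairpin RNA that was either a control (shCTL) or directed against the heat shock transcription factor HSF1 (shHSF1), with 3 mRNA libraries a group, numbered 1 to 3. Cells of both groups were grown in culture under the same stated conditions, with no other treatment named. The sources used here give neither the hairpin sequences nor whether each line was a clone or a pool, and nothing says that the replicates were separate cultures, so p-values measure only the spread between these libraries. The question was how far these transcripts differed between the 2 groups and which of them the cells held at all.

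BCL2 family proteins decide whether the outer mitochondrial membrane stays intact. Pro-survival members hold the effectors BAX and BAK in check. BH3-only proteins, each switched on by its own kind of stress, either bind and neutralise the pro-survival members or activate the effectors directly, and the opened membrane then releases cytochrome c, which starts the caspase cascade. Because much of this control acts on protein binding, cleavage and turnover, transcript levels describe only the supply of each protein.

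The family is held together by the BH3 region, the short helix through which its members bind one another. Shown here are the 42 coding bases around that helix in 9 members, read from GENCODE M21 transcripts (build GRCm38), because they let the members be compared directly. Capitals mark the codon of the conserved leucine and, further on, the codon of a small residue followed by that of the conserved aspartate. The search pattern was written from the known BH3 cores, so that each of these genes holds it is not a finding. Pmaip1, the member not shown, held no match in the 3 coding transcripts read, so the pattern misses a BH3-only gene. Of 21591 mouse genes translated in the same way, 1.69% hold it somewhere.
Bcl2 (chr1:106712572-106712613, minus strand): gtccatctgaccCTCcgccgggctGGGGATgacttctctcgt
Bcl2l1 (chr2:152829694-152829735, minus strand): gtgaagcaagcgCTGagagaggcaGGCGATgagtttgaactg
Mcl1 (chr3:95659424-95659465, plus strand): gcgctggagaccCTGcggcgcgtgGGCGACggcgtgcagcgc
Bax (chr7:45465994-45466035, minus strand): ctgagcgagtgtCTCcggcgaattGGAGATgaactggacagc
Bak1 (chr17:27022528-27022569, minus strand): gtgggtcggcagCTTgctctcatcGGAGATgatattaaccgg
Bid (chr6:120897286-120897327, minus strand): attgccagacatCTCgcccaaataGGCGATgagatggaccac
Bad (chr19:6950780-6950821, plus strand): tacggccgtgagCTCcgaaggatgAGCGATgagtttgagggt
Bbc3 (chr7:16313761-16313802, plus strand): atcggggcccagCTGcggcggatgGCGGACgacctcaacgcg
Bcl2l11 (chr2:128147138-128147179, plus strand): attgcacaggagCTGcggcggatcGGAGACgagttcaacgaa
Each stretch lies in 1 exon. Bbc3 and Bcl2l11 were the most alike of the 36 pairs, with 28 of 42 bases identical. Bcl2 and Bid, and Mcl1 and Bid, shared the fewest, with 15 of 42 each. Bak1 and Bid, an effector and the BH3-only gene whose protein has a like fold, shared 24 of 42.

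Reads assigned to genes came to between 23750025 and 36903175 per library, and levels are given as RPKM, read counts corrected for gene length and library total. Hsf1, the hairpin's target, measured 18.4, 20.3 and 20.1 RPKM in shCTL, against 23.2, 13.8 and 15.4 in the libraries labelled shHSF1, so the library labelled shHSF1 replicate 1 held no less target transcript than the controls. The replicate 1 libraries of both groups differed from the rest: in 46.5% of the 11386 genes that passed the filter on low values, both lay above or both lay below all 4. Results are therefore also given without those 2 libraries, and with replicate 1 as a covariate. The epithelial keratin genes Krt8 and Krt18 were at 314 RPKM or more in every library, and Krt5 was listed at 0 in all 6. The epithelial markers did not move one way. Each shHSF1 library was below each shCTL library in Krt8 and in Krt18, whereas Epcam was higher in each shHSF1 library (28.3 to 35.9 RPKM, against 12.7 to 14.7 in shCTL), and Krt14, Krt19 and Cdh1 overlapped. The sum of the 7 markers, nearly all of it Krt8 and Krt18, was between 1675 and 2436 RPKM in shCTL and between 1261 and 1488 in shHSF1. The 6 leukocyte markers summed to between 0.0354 and 0.110 RPKM in shCTL and between 0.160 and 1.12 in shHSF1, with Lyz2 as the main part in shHSF1 replicates 2 and 3. The 3 endothelial markers summed to between 0.0368 and 0.143 RPKM. The 5 fibroblast markers summed to between 10.0 and 37.6 RPKM in shCTL and between 15.7 and 22.8 in shHSF1, nearly all of it from Pdgfra. The part of these markers in the results below was not tested.

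Of the 10 members, 9 passed the filter (at least 0.5 RPKM in 3 or more libraries) and none of the 9 passed an adjusted p of 0.05 between the groups in limma. Over all genes tested 0.0263% did (3 genes), so a count of 0 among 9 is near the background. At an unadjusted limma p under 0.05, which 11.4% of all genes reached, there was 1 member, Bad. The median log2 difference of the 9 was 0.12, against 0.052 over all genes tested, with 5 members above 0 and 4 below. With replicate 1 as a covariate (5.64% of all genes called) and without both replicate 1 libraries (11.1% called) the count of members past the test was again 0, as it was with voom on whole reads (0.0878% called, or 0.738% with the replicate block) and with the replicate block in limma (0.176% called). Groups that did not overlap in either direction were seen in 1 of the 9 members and in 20.0% of all genes tested.

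**Figure D1:**
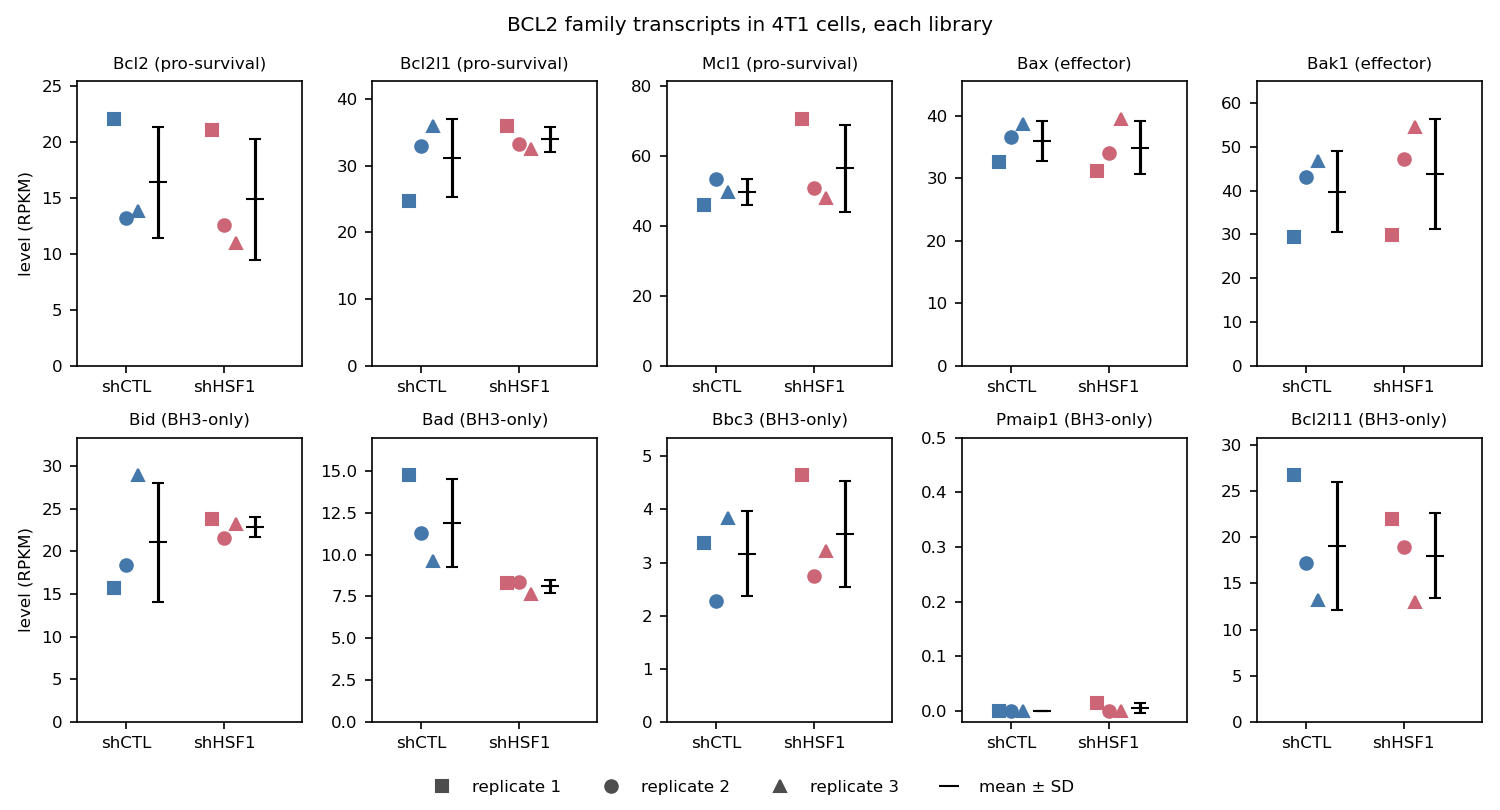
Level in RPKM (vertical axes, linear, from 0 or, for Pmaip1, just below it) of each BCL2 family member in the 3 shCTL and 3 shHSF1 libraries; point shape gives the replicate number, and the bar beside each group its mean ± SD (n = 3). Bad is the member whose groups do not overlap, with 9.61 RPKM or more in shCTL and 8.34 or less in shHSF1, while Pmaip1 is at 0 in 5 of 6 libraries.

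The transcripts covered a wide range of levels. In shCTL the order by mean was Mcl1, Bak1, Bax, Bcl2l1, Bid, Bcl2l11, Bcl2, Bad, Bbc3 and Pmaip1. Down to Bad, each member's range over the shCTL libraries overlapped that of the next in line, while Bbc3 lay apart from Bad and Pmaip1 apart from Bbc3. Within each library, where both genes share the same RNA, Bcl2l1 was nonetheless above Bid, and Bcl2 above Bad, in all 6 libraries. Mcl1 was above 88.2% of all genes tested and Bbc3 above 18.2%. RPKM divides by the summed exon length used by the authors, which is 7738 bases for Bcl2 and 7137 for Bcl2l11. GENCODE M21 lists coding transcripts as short as 2841 and 672 bases for them. Such gaps were also found for Mcl1 (3487 against 858 bases), Bcl2l1 (3195 against 472) and Bbc3 (1976 against 405). A cell that uses short isoforms would thus be given too low a level for these genes. The order of levels carries that limit, while the differences between groups carry it only if isoform use differs. Bax was counted over 869 bases, fewer than the 1100 of its longest listed coding transcript.

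Among the pro-survival genes Mcl1 was the most abundant. It encodes a short-lived protein that sequesters BAK and BIM. Mcl1 (chromosome 3, 95658721 to 95663178, plus strand, build mm10) measured 46.0, 53.3 and 49.7 RPKM in shCTL, against 70.7, 50.8 and 48.0 in shHSF1. The high value belonged to shHSF1 replicate 1 alone, and the other 5 libraries lay together. The log2 difference was 0.17 (SE 0.18, 95% CI −0.26 to 0.59, limma adjusted p = 0.810). Without both replicate 1 libraries it was −0.060 (95% CI −0.28 to 0.16, limma adjusted p = 0.679), so the direction rested on that pair, whose own log2 difference was 0.62.

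Bcl2l1, which encodes the mitochondrial guardian BCL-XL, stood at 24.7, 32.9 and 36.0 RPKM in shCTL, against 36.0, 33.3 and 32.5 in shHSF1 (chromosome 2, 152758732 to 152831728, minus strand). Here the low value belonged to shCTL replicate 1, and the groups overlapped. The log2 difference was 0.14 (SE 0.17, 95% CI −0.27 to 0.54, limma adjusted p = 0.846). It turned to −0.064 without both replicate 1 libraries (limma adjusted p = 0.660) and to −0.022 without shCTL replicate 1. As for Mcl1, only the replicate 1 pair (log2 difference 0.53) was far from 0.

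For Bcl2, the founding member of the family, the levels followed the replicate number more than the group. It stood at 22.1, 13.2 and 13.8 RPKM in shCTL, against 21.0, 12.6 and 11.0 in shHSF1 (chromosome 1, 106538178 to 106714290, minus strand). Both replicate 1 libraries were above all others, with a mean 1.70 times that of replicates 2 and 3, a pattern shared by 27.9% of all genes tested. Between the groups the log2 difference was −0.15 (SE 0.30, 95% CI −0.88 to 0.58, limma adjusted p = 0.911), and each same-numbered pair was below 0 (−0.068, −0.065 and −0.32). Without replicate 1 the interval narrowed to −0.46 to 0.074 (log2 difference −0.19, limma adjusted p = 0.272). Bcl2 made up between 12.0% and 13.9% of the summed pro-survival RPKM in replicates 2 and 3, but 23.8% in shCTL replicate 1 and 16.5% in shHSF1 replicate 1.

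The effectors were present at similar levels. BAX and BAK are the proteins that oligomerise to permeabilise the outer membrane. Bax (chromosome 7, 45461695 to 45466898, minus strand) stood at 32.5, 36.6 and 38.7 RPKM in shCTL, against 31.2, 34.0 and 39.6 in shHSF1. The groups lay over each other, and the interval of the log2 difference was the narrowest of the 9 members (−0.045, SE 0.14, 95% CI −0.38 to 0.29, limma adjusted p = 0.948). Without both replicate 1 libraries it was −0.30 to 0.22 (log2 difference −0.037, limma adjusted p = 0.830).

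Bak1 (chromosome 17, 27019812 to 27028626, minus strand) stood at 29.3, 43.0 and 46.8 RPKM in shCTL, against 29.8, 47.2 and 54.4 in shHSF1. Both replicate 1 libraries were the lowest, with a mean 0.617 times that of replicates 2 and 3, the mirror image of Bcl2; 18.6% of all genes tested had both replicate 1 libraries below the other 4, and Bax was another such member. The log2 difference between the groups was 0.12 (SE 0.28, 95% CI −0.54 to 0.79, limma adjusted p = 0.923). With replicate 1 as a covariate the interval was −0.11 to 0.36 (limma adjusted p = 0.455). The ratio of Bak1 to Bax RPKM was 0.901 and 0.955 in the replicate 1 libraries of shCTL and shHSF1, and between 1.17 and 1.39 in the other 4.

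**Figure D2:**
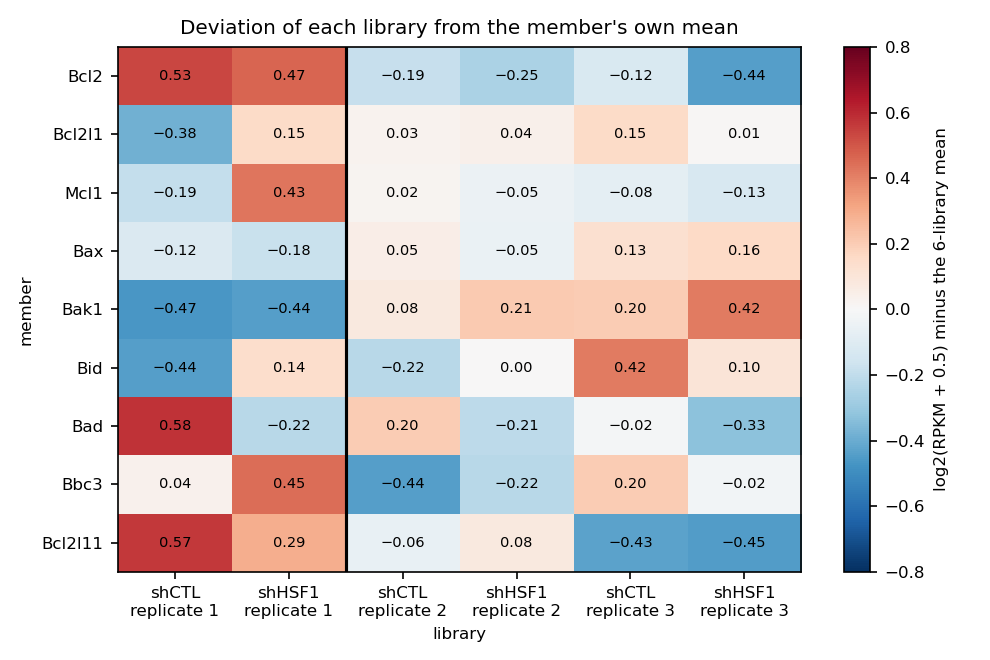
Colour and printed value give log2(RPKM + 0.5) in each library minus that member's mean over the 6 libraries, with members in rows and libraries in columns ordered by replicate number; the line separates replicate 1. Bcl2 and Bcl2l11 are high and Bak1 and Bax are low in both replicate 1 libraries. Bad, Mcl1, Bid and Bcl2l1 differ most between the 2 replicate 1 libraries, with Bad lower and the others higher in shHSF1.

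Among the BH3-only genes, Bad was the member with the largest difference. BAD binds BCL-2 and BCL-XL and is held inactive by phosphorylation under growth factor and glucose signalling. Bad (chromosome 19, 6941861 to 6951905, plus strand) stood at 14.8, 11.3 and 9.61 RPKM in shCTL (553, 407 and 397 reads), against 8.30, 8.34 and 7.66 in the libraries labelled shHSF1 (309, 468 and 334 reads). Each shHSF1 library was below each shCTL library. Groups that did not overlap, with shHSF1 lower, were seen in 7.16% of all genes tested, and in 1 of the 9 members.

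The means were 11.9 ± 2.63 and 8.10 ± 0.379 RPKM (SD, n = 3 each), a change of the mean of −31.8%. The log2 difference was −0.51 (SE 0.19, 95% CI −0.95 to −0.062, limma adjusted p = 0.369), so it did not pass over all genes. The same-numbered pairs had log2 differences of −0.79, −0.41 and −0.31, the largest in replicate 1. Their shared sign follows from groups that do not overlap. Leaving out shCTL replicate 1 gave a log2 difference of −0.34. On replicates 2 and 3 alone Bad differed by −0.36 (SE 0.12, limma adjusted p = 0.103), and a covariate for replicate 1 gave −0.51 (SE 0.14, limma adjusted p = 0.0810). With library weights, under which 52.3% of all genes passed, Bad passed too (−0.40, limma adjusted p = 0.00224).

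Part of Bad is shared with another gene. Of the 1521 exonic bases over which Bad was counted, 517 (34.0%), all in its first exon, are also exonic in Gpr137, a gene for a membrane protein on the opposite strand. The sources used here do not say whether counting used the strand or how reads in shared bases were assigned, so reads of the 2 genes may be mixed there. Gpr137 stood at 5.39, 3.77 and 3.01 RPKM in shCTL, against 4.81, 2.65 and 2.27 in shHSF1. Its groups overlapped, its log2 difference was −0.31 (SE 0.32, 95% CI −1.07 to 0.45, limma adjusted p = 0.802), and each same-numbered pair was lower in shHSF1. The part of Gpr137 reads in the Bad difference was not tested, nor was that of the epithelial markers, among which Krt8 and Krt18 were lower and Epcam higher in each shHSF1 library. Of the other 9 members, 0 shared exonic bases with another gene of the table.

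HSF1 binds inverted repeats of the unit nGAAn, so the 250 bases before each RefSeq start (GRCm38.p6) were searched for GAANNTTC and TTCNNGAA, each of which reads the same on both strands. Of 15 windows of the 9 members with an entry, 1 held a match, and it was at Bad. Over all genes with an entry, 14.5% held at least 1 match, and over all windows 12.8% did. The 60 bases before the first start of Bad are shown with the match in capitals, at chr19:6941801-6941860 on the plus strand. The match begins 30 bases before the start.
Bad: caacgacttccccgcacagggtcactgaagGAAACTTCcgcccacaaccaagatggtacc
The match describes letters in this window, and no binding was measured.

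**Figure D3:**
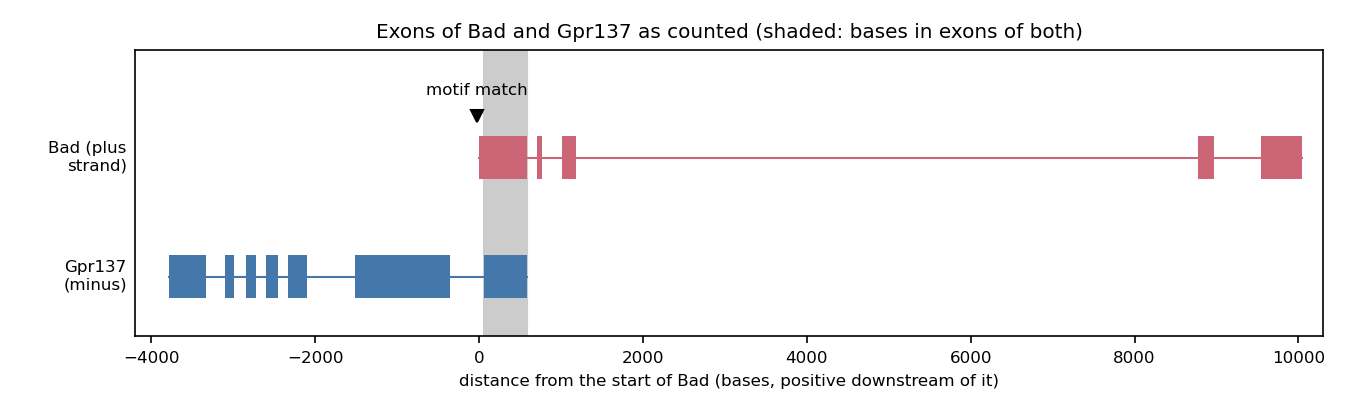
Exons of Bad (upper) and Gpr137 (lower) as the authors counted them, against distance in bases from the start of Bad, with the triangle at the motif match. The shaded stretch holds the 517 bases that are exonic in both genes, and the match lies just before Bad's first exon.

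Bcl2l11, which encodes BIM, a strong activator of BAX and BAK that is induced when growth factors are withdrawn, was the BH3-only gene with the most reads. It stood at 26.8, 17.2 and 13.2 RPKM in shCTL, against 22.0, 19.0 and 13.0 in shHSF1 (chromosome 2, 128126038 to 128162547, plus strand). Both replicate 1 libraries were again above all others, with a mean 1.56 times that of replicates 2 and 3, and the groups overlapped. The log2 difference was −0.053 (SE 0.30, 95% CI −0.78 to 0.68, limma adjusted p = 0.972), and it ran from −0.28 to 0.22 with each library left out in turn.

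Bid encodes the protein that caspase-8 cleaves to link death receptors to mitochondria. It stood at 15.7, 18.5 and 29.0 RPKM in shCTL, against 23.8, 21.6 and 23.2 in shHSF1 (chromosome 6, 120893119 to 120916820, minus strand). The 3 shHSF1 libraries lay inside the range of the shCTL libraries. The log2 difference was 0.16 (SE 0.23, 95% CI −0.39 to 0.72, limma adjusted p = 0.871), and −0.047 without both replicate 1 libraries.

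Bbc3 and Pmaip1 encode PUMA and NOXA, BH3-only proteins best known as targets of p53. Bbc3 was scarce, at 3.37, 2.28 and 3.84 RPKM in shCTL and 4.65, 2.74 and 3.21 RPKM in shHSF1, from 107 to 225 reads a library (chromosome 7, 16309583 to 16318334, plus strand). Its groups overlapped (log2 difference 0.14, SE 0.26, 95% CI −0.49 to 0.76, limma adjusted p = 0.905). Pmaip1 (chromosome 18, 66458604 to 66465558, plus strand) had 0 reads in 5 libraries and 1 read in shHSF1 replicate 1 (0.0154 RPKM). At this depth a count of 0 allows up to 3 reads, which for Pmaip1 is between 0.0306 and 0.0476 RPKM, a limit that covers counting error only. Pmaip1 was the member left untested by the filter, and no fold is given for it.

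Summed by role, pro-survival genes made up 43.1%, 43.6% and 41.4% of the RPKM of the 10 members in shCTL and 51.6%, 42.1% and 39.3% in shHSF1. The effectors made up 28.7%, 34.9% and 35.5% in shCTL and 24.6%, 35.4% and 40.4% in shHSF1. Both replicate 1 libraries had the lowest effector share, and shHSF1 replicate 1 the highest pro-survival share. The BH3-only share was between 21.5% and 28.2% in shCTL and between 20.3% and 23.7% in shHSF1, and the groups overlapped for all 3 roles.

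**Figure D4:**
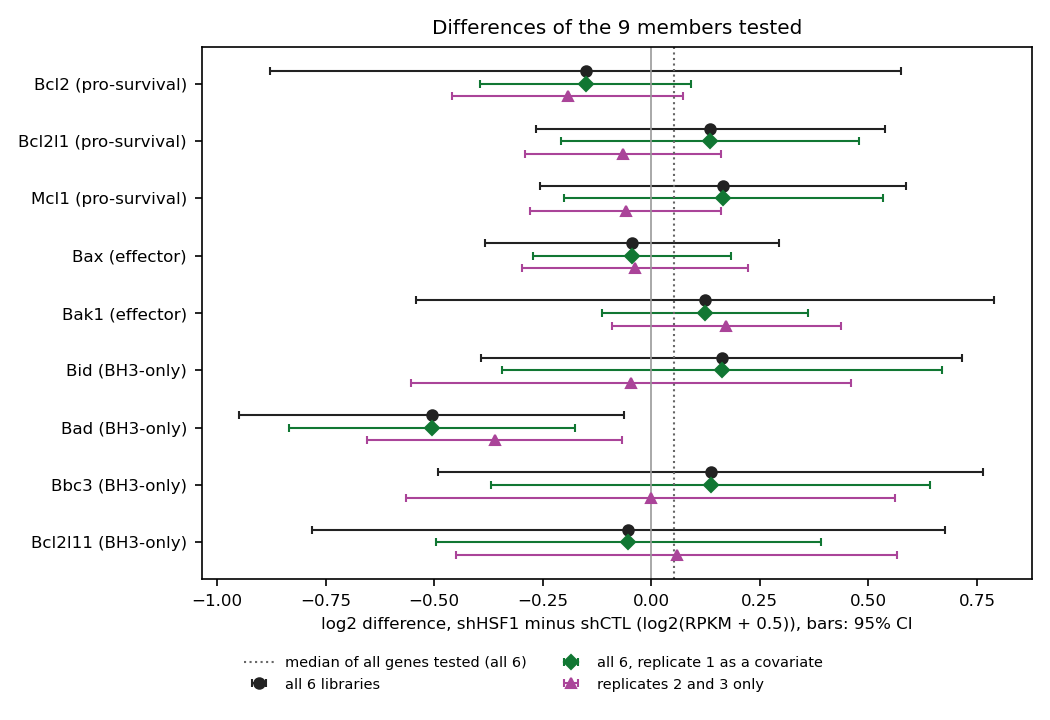
Log2 difference (shHSF1 minus shCTL, on the log2(RPKM + 0.5) scale) of the 9 members tested, with 95% confidence intervals, from all 6 libraries, from all 6 with replicate 1 as a covariate, and from replicates 2 and 3 alone. The intervals of Bad lie below 0 in each of the 3 fits although its limma adjusted p (0.369, 0.0810 and 0.103) did not pass. The intervals of the other 8 members include 0. An interval without 0 amounts to an unadjusted limma p under 0.05. Of the 11386 genes tested, 1296, 3140 and 3681 reached that in the 3 fits, which share libraries.

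The wider pathway was followed through 5 further lists. Of 16 other BCL2 family genes, 8 passed the filter and 0 passed the test, with 2 at an unadjusted limma p under 0.05 (11.4% of all genes) and a median log2 difference of 0.22 (0.052 over all genes tested). Those 2, Bik and Bnip3l, were also the ones whose groups did not overlap, both higher in shHSF1, a pattern found in 12.9% of all genes tested. Bik met the filter only through shHSF1, so the filter fixed its direction in these counts and in the median. They are therefore no support for a difference of the list. The pro-survival A1 paralogs (Bcl2a1a, Bcl2a1b, Bcl2a1c and Bcl2a1d), which are close copies that may share reads, were at 0.0510 RPKM or less in every library.

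Bik, a BH3-only gene whose protein sits at the endoplasmic reticulum, stood at 0.474, 0.357 and 0.273 RPKM in shCTL, against 1.99, 2.13 and 2.22 in shHSF1. These levels rest on 11, 8 and 7 reads against 46, 74 and 60. All 3 shCTL values were under 0.5 RPKM, so Bik met the filter, and was tested, only through the group in which it was high. All 3 shHSF1 libraries lay far above the controls, so the same-numbered pairs had to go the same way. The mean RPKM in shHSF1 was 5.74 times that in shCTL. On the log2(RPKM + 0.5) scale, which understates the fold of so low a gene, the log2 difference of Bik was 1.60. It did not pass (SE 0.20, 95% CI 1.13 to 2.06, limma adjusted p = 0.0930). Since the filter admitted Bik only through shHSF1, the alternative fits are no support for a difference. Bik was under 0.05 on replicates 2 and 3 alone (1.71, limma adjusted p = 0.00854), where 11.1% of all genes passed. Given a covariate for replicate 1 (5.64% of all genes passed) its limma adjusted p was 0.0158. Without the variance trend (0.193% passed) its limma adjusted p was 0.0288. Bik did not pass with voom on whole reads (2.43, limma adjusted p = 0.106) nor with the replicate block (limma adjusted p = 0.0771). Across the alternatives, library weights included, its adjusted p ran from 3.36e-05 to 0.596.

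Bnip3l, the mitophagy receptor NIX, stood at 42.6, 34.2 and 37.6 RPKM in shCTL, against 59.0, 59.4 and 49.2 in shHSF1. The groups did not overlap. Bnip3l differed by 0.54 (log2, SE 0.14, limma adjusted p = 0.235). It passed without both replicate 1 libraries (0.59, limma adjusted p = 0.0388), where 11.1% of all genes passed. Given a covariate for replicate 1 (5.64% of all genes passed) it passed too (limma adjusted p = 0.0439). It did not pass with the replicate block (limma adjusted p = 0.105), with voom (limma adjusted p = 0.278) or with voom and the block (limma adjusted p = 0.108).

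Downstream of the mitochondria, all 14 apoptosome and caspase genes passed the filter and 0 passed the test (median log2 difference 0.063, with 8 above 0 and 6 below). The channel genes Vdac1 and Vdac2, the latter a partner of BAK in the outer membrane, had the smallest p in that list, with log2 differences of 0.36 (SE 0.17, limma adjusted p = 0.475) and 0.24 (SE 0.11, limma adjusted p = 0.497), and 1 of the 14 genes, Vdac2, had groups that did not overlap, against 20.0% of all genes tested. Without both replicate 1 libraries 2 genes of the list passed, Vdac1 and the caspase gene Casp6, both higher in shHSF1, where 11.1% of all genes passed. Of the 5 inhibitor of apoptosis genes, which bind or ubiquitinate caspases, 0 passed (median 0.037). The smallest p there belonged to Birc3, at 2.44, 2.25 and 6.42 RPKM in shCTL and 2.75, 6.66 and 7.37 in shHSF1 (limma adjusted p = 0.739), and to Xiap, at 23.1 to 23.6 RPKM in shCTL and 22.8 to 27.4 in shHSF1 (limma adjusted p = 0.805). Without both replicate 1 libraries 1 of the 5, Birc6, passed and was lower in shHSF1, a count too small to set against the 11.1% of all genes that passed.

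In the death receptor arm, which feeds into Bid, 8 of 10 genes passed the filter and 0 passed the test (median log2 difference 0.042). Tnfrsf10b, the mouse TRAIL receptor, stood at 6.72, 10.5 and 10.4 RPKM in shCTL, against 15.4, 14.8 and 15.2 in shHSF1, without overlap. Tnfrsf10b differed by 0.71 (log2, SE 0.20, limma adjusted p = 0.254). It passed on replicates 2 and 3 alone (0.50, limma adjusted p = 0.0322), where 11.1% of all genes passed. Given a covariate for replicate 1 it did not pass (limma adjusted p = 0.0519), nor with the replicate block (limma adjusted p = 0.122) or voom (limma adjusted p = 0.295). Fas, the receptor for FAS ligand, had a difference of 0.81 (SE 0.39, limma adjusted p = 0.502) with 4.58 to 15.3 RPKM in shCTL and 14.3 to 16.0 in shHSF1. Tnfrsf1a, a receptor for TNF, was the other of 2 genes of the arm without overlap (20.0% of all genes tested), lower in shHSF1 (37.9 ± 6.72 and 30.6 ± 1.44 RPKM, SD, n = 3 each), and its log2 difference was −0.29. The apical caspase gene Casp8 stood between 33.9 and 43.0 RPKM over the 6 libraries.

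Among 12 regulators of the members, 11 passed the filter and 0 passed the test (median log2 difference 0.13). Trp53, which encodes the inducer of Bax, Bbc3 and Pmaip1, stood at 15.9, 18.3 and 21.5 RPKM in shCTL, against 40.8, 21.5 and 25.6 in shHSF1, and its groups all but touched (21.47 and 21.53 RPKM in the nearest libraries). Its log2 difference was 0.60 (SE 0.26, limma adjusted p = 0.447), of which the replicate 1 pair contributed most (1.34, against 0.22 and 0.25). Trp53 was the 1 regulator of the 11 whose groups did not overlap, against 20.0% of all genes tested. Foxo1, a transcription factor of the family that induces Bcl2l11, had 0.69 (SE 0.28, limma adjusted p = 0.430) and groups that overlapped. Neither passed without both replicate 1 libraries.

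**Figure D5:**
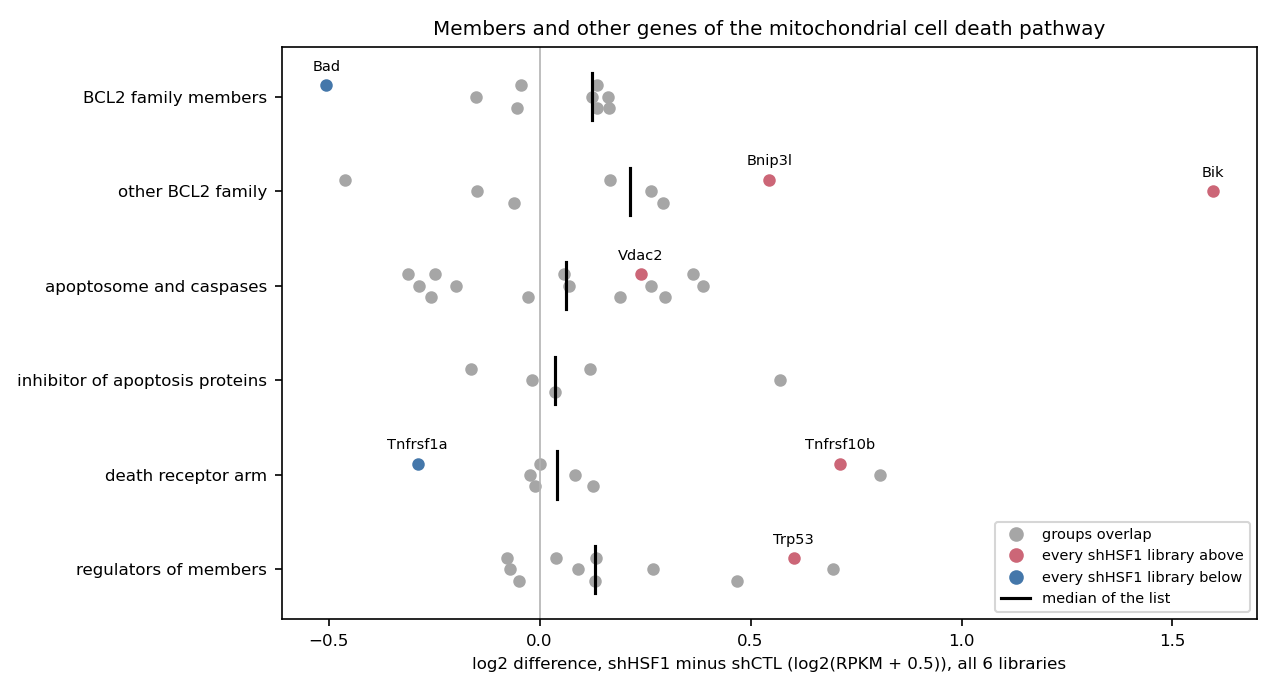
Log2 difference (shHSF1 minus shCTL, all 6 libraries) of each tested gene in the 10-member set and in the 5 further lists, with the median of each list as a bar. Coloured points are genes whose groups do not overlap, and Bad is the coloured point among the members. Bik, at 1.60, lies farthest from 0 of all the genes drawn. It met the filter, and was drawn, only through shHSF1, and its shCTL levels rest on 7 to 11 reads.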

How the data were processed

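Libraries were made with a KAPA mRNA kit, per the labels' protocols. STAR, featureCounts and mm10 are named in the submitters' processing notes; the annotation, the versions and the strand setting are not stated there. The authors deposited RPKM with gene lengths, per the file headers. RPKM times length gave whole reads for 100% of values (tolerance 0.001), so read totals could be computed. A spreadsheet had turned 27 symbols into dates, none of them genes named here.

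Sample titles gave the groups and numbers. Genes reaching 0.5 RPKM in 3 or more libraries were tested on log2(RPKM + 0.5) with limma 3.58.1 in R 4.3.3 (variance trend, no block), shHSF1 minus shCTL, with Benjamini-Hochberg adjustment over all genes at 0.05; intervals are 95%. Fold changes on that scale understate those of low genes. Alternatives were pseudocounts, filters, scalings, each library left out, the replicate block, library weights and no trend; replicate 1 left out or as a covariate, and voom, were added with the data known. Same-numbered libraries' deviations correlated at 0.58, 0.18 and 0.68 across genes, above the 0.1 taken to pair samples. But shCTL replicate 2 correlated at 0.51 with shHSF1 replicate 3, and shCTL replicate 3 at 0.24 with shHSF1 replicate 2. The replicate 2 libraries thus did not correlate best with each other, and what a shared number stands for is not stated. No call on a member changed when the block was added. Every pair of libraries differed by more than counting noise (chi-square over its degrees of freedom at least 20.3). The code was tested on simulated counts that held no shift of the replicate 1 libraries, so that test does not bear on such a shift.

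The members, lists and tests were chosen with earlier results of these data known. Named were Hsf1, the members and the 2 genes with the smallest p of each list, none having passed; Gpr137, Tnfrsf1a, the marker genes, Casp6, Casp8, Birc6 and the A1 paralogs were named after their values were seen. Python 3.11.15, pandas 2.3.3, numpy 2.4.6 and matplotlib 3.10.9 were used.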

Additional observations from a re-analysis of the deposited data

How the results depend on the processing

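The number of members past the test was 0 in every alternative but library weights, where it was 1 (Bad). The number of all genes past it, 3 in limma on 6 libraries, was 18 with no filter, 22 without the variance trend, 5954 with library weights, 20 with the replicate block, 10 with voom on whole reads and 84 with voom and the block, 642 with replicate 1 as a covariate and 1262 without both replicate 1 libraries. It ran from 0 (without shCTL or shHSF1 replicate 2; 771 and 778 at an unadjusted p under 0.05) to 8 with a library left out. Bad was below 0 in all 20 alternatives (−0.64 to −0.34, limma adjusted p 0.00224 to 0.785), and Bik (1.19 to 2.43), Bnip3l and Tnfrsf10b were above 0 in all 20. The groups of these genes do not overlap. Leaving out libraries, weighting them or changing the pseudocount therefore could not turn the sign, and its constancy adds nothing to the non-overlap. Bik also met the filter only through shHSF1.

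The other 8 members changed sign somewhere. Without both replicate 1 libraries Bcl2l1 was −0.064, Mcl1 −0.060, Bid −0.047, Bbc3 −0.0011 and Bcl2l11 0.059. With library weights Mcl1 was −0.057 and Bcl2l11 0.12. With a library left out, Bcl2 ran from −0.42 to 0.078, Bcl2l1 from −0.022 to 0.25, Mcl1 from −0.0060 to 0.27, Bax from −0.14 to 0.032, Bak1 from −0.079 to 0.38, Bid from −0.019 to 0.41, Bbc3 from −0.053 to 0.28 and Bcl2l11 from −0.28 to 0.22. The cause was not tested. Pmaip1 lay under the limit that 3 reads allow, and the levels of Bik rest on 7 to 74 reads.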
